A study of Mus musculus with 9 samples.

Results

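The genes described here mark T cells and natural killer (NK) cells and their killing machinery, measured in mouse melanomas that make different amounts of histamine. They are the T cell receptor chains Cd3e and Cd3g, the coreceptors Cd4 and Cd8a, the granule proteins Gzma, Gzmb, Prf1 and Nkg7, the NK receptor chain Klrd1, and Cd274, which encodes the checkpoint ligand PD-L1. Probes were taken by their accession or, failing that, by a current symbol or synonym of a gene in the description. That gave 12 probes for the 10 genes, out of 41174 probes and 16837 named genes on the array.

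Tumours were grown from 3 variants of B16-F10, a transplantable mouse melanoma line, that differ in histidine decarboxylase (HDC), the enzyme that produces histamine. HDC-S tumours came from the variant with enhanced histamine production, HDC-A tumours from the variant with diminished production, and HDC-M tumours from the variant whose production was left unmodified. Each group had 6 tumours, whose RNA was combined 2 tumours at a time into 3 pools. Every pool was labelled with Cy5 and hybridised beside the same Cy3-labelled RNA of cultured HDC-M cells, without a dye swap, so all values are log2 ratios of tumour over culture. Each group rests on 1 line variant, so the line and its histamine production cannot be told apart, and a pool hides the difference between its tumours. The way HDC was altered and the strain and age of the host mice are not given in the sources used here.

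T cells recognise antigen through a receptor that signals by the CD3 chains, with CD4 or CD8 as coreceptor. Cytotoxic T cells and NK cells kill by releasing granules that hold perforin, which opens the target cell's membrane, and granzymes, proteases that enter and start cell death. PD-L1 binds PD-1 on T cells and restrains them. It is induced by interferon gamma, a cytokine that T and NK cells secrete, and tumour cells and myeloid cells can make it as well as lymphocytes.

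Across the arrays, Cy5 was well above background at 58.0% to 69.7% of probe spots, the highest share being that of HDC-M pool 3. Log2 ratios were correlated over the 26871 probes with Cy5 well above background on at least 3 arrays. There r was 0.90 to 0.95 within groups and 0.86 to 0.92 between groups. Hdc itself (A_51_P254656) averaged 0.46 in HDC-S, 0.24 in HDC-A and 0.38 in HDC-M tumours, and passed in no comparison (adjusted p = 0.864 for HDC-S against HDC-M, 0.696 for HDC-A against HDC-M and 0.463 for HDC-S against HDC-A, limma with Benjamini-Hochberg adjustment). Of the melanocyte markers, Pmel, Tyrp1, Dct and Mitf were well above background on all 9 arrays. Replicates 1 and 2 of every group were scanned on a first day and replicate 3 on a second. HDC-M pool 3 and HDC-A pool 1 stood apart from the other pools of their groups in immune genes, as described below, and the relations between genes over the pools are given with and without both.

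The promoters of Gzmb, Prf1, Nkg7 and Cd274 are printed because these genes varied together from pool to pool. Each is the 250 bases before the gene's start, from the RefSeq table of GRCm38.p6, read 5′ to 3′ on the gene's strand, which is given in brackets. Of the 10 genes, 8 had an entry, and Cd4 and Klrd1 had none. Capitals mark matches, on either strand, to the motifs searched.
Gzmb promoter, chr14:56262335-56262584 (-): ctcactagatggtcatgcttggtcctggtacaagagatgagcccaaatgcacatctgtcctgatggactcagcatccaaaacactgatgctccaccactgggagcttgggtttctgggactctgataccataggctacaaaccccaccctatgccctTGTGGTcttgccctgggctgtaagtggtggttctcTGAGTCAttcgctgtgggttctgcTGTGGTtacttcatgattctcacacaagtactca
Prf1 promoter, chr10:61297586-61297835 (+): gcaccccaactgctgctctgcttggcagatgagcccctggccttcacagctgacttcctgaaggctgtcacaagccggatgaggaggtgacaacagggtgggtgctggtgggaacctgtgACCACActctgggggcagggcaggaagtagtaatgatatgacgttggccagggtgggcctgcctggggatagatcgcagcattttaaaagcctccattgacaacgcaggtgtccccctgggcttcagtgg
Nkg7 promoter, chr7:43436888-43437137 (+): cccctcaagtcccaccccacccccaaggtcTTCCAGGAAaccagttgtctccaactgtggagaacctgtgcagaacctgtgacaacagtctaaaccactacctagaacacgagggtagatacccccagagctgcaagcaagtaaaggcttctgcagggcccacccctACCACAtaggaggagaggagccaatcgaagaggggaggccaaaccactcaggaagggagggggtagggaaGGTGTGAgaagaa
Cd274 promoter, chr19:29367188-29367437 (+): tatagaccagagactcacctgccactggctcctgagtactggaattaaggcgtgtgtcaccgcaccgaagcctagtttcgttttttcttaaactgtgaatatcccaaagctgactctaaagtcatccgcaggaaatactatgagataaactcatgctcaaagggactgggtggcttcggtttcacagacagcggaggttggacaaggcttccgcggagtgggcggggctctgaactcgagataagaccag
The motifs were an interferon regulatory factor pattern (GAAA, any 2 bases, then GAAA again), the STAT pattern known as GAS (TTCNNNGAA), a T-box pattern (GGTGTGA), a Runx pattern (TGTGGT) and an AP-1 pattern (TGANTCA). The Gzmb window held the Runx pattern at 93 and 34 bases and the AP-1 pattern at 58 bases before the start. That of Prf1 held the Runx pattern at 130 bases, and that of Nkg7 held GAS at 220, Runx at 83 and T-box at 13 bases. The Cd274 window matched none of the 5 patterns. Among the other windows, Gzma's matched the interferon regulatory factor pattern at 97 bases and Runx at 50 bases. Over 32851 promoters of the same length, 14% held the Runx pattern, 7.02% GAS, 6.75% AP-1, 3.33% the T-box pattern and 2.98% the interferon regulatory factor pattern. No 2 of the matches in these windows overlapped. A match describes letters only, and none was tested as a binding site.

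Signals of the 10 genes were low. On the tumour side, Cd274 was the brightest relative to the negative controls, at 3.07 to 14.1 times their median over the 9 arrays. Gzmb reached 1.11 to 5.53 times, the brighter Nkg7 probe (A_52_P24447) 1.53 to 3.77 times and Cd3e 1.41 to 2.52 times. The Cy5 signal was well above background on all 9 arrays for Cd3e, Cd3g, Klrd1, Cd274, both Nkg7 probes and the Cd4 probe A_52_P383089. It was so on 8 arrays for Gzmb and Prf1, each time without HDC-A pool 1, on 7 for Gzma and on 4 for Cd8a. The second Cd4 probe (A_51_P236573) was not well above background on any array, and was not tested. All 10 genes and 11 of the 12 probes therefore entered the fit.

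In the culture channel the same genes lay close to the negative controls. Cd274 was the member whose Cy3 signal exceeded the 95th percentile of the negative controls on all 9 arrays, at 1.35 to 1.79 times their median. The brighter Nkg7 probe exceeded it on 8 arrays, the tested Cd4 probe on 6, Cd3e on 5, Prf1 on 3, Gzmb, Cd3g, Cd8a and the other Nkg7 probe on 1, and Klrd1 and Gzma on 0. The scanner's own mark could not be used there, since 95.2% to 99.7% of the negative controls carried it in Cy3. For Gzmb, Cd3g, Cd8a, Klrd1, Gzma, Prf1 and the dimmer Nkg7 probe the denominator was thus mostly within the range of the negative controls. The size of their ratio over culture depends on how that background is treated.

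**Figure D1:**
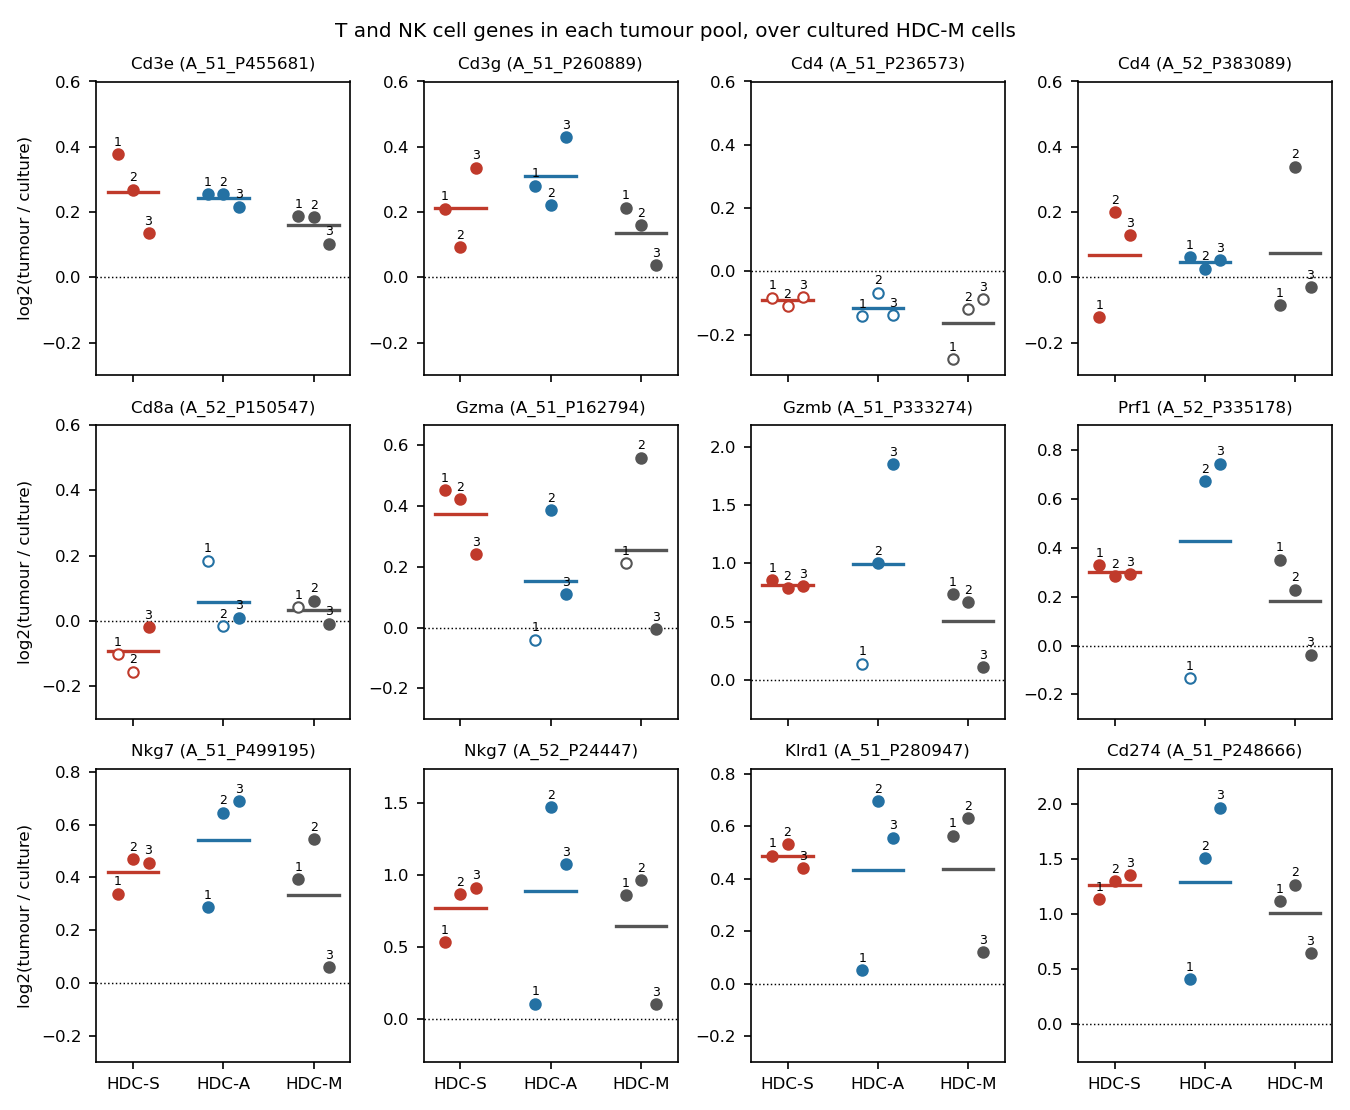
Log2 ratio of tumour pool over cultured HDC-M cells (vertical axes, which differ between rows and genes) for the 12 probes in the HDC-S, HDC-A and HDC-M pools (horizontal axes). Points are pools with their replicate number, lines are means of 3 pools, and open points were not well above background in Cy5; for Gzmb, Prf1, Klrd1 and Cd274 the HDC-S pools lie close together, and for these and Nkg7 HDC-A pool 1 and HDC-M pool 3 lie lowest in their groups.

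The T cell receptor chains Cd3e and Cd3g, which carry the receptor's signal into the cell, stood slightly above culture in every pool. Cd3e had log2 ratios of 0.38, 0.27 and 0.14 in HDC-S pools, 0.26, 0.26 and 0.22 in HDC-A pools, and 0.19, 0.18 and 0.10 in HDC-M pools. Cd3g had 0.21, 0.09 and 0.34 in HDC-S pools, 0.28, 0.22 and 0.43 in HDC-A pools, and 0.21, 0.16 and 0.04 in HDC-M pools. For both genes every HDC-A pool was above every HDC-M pool, whereas the HDC-S pools overlapped with both other groups. HDC-A exceeded HDC-M by 0.08 for Cd3e (SE 0.07, adjusted p = 0.628) and by 0.17 for Cd3g (SE 0.08, adjusted p = 0.372), so neither passed the 0.05 threshold. The HDC-A against HDC-M difference of Cd3e became negative with the Cy5 channel alone and with median centring (-0.03 each).

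The coreceptors were near the culture signal. Cd4, the helper T cell coreceptor that mouse T cells carry, had ratios of -0.12, 0.20 and 0.13 in HDC-S, 0.06, 0.03 and 0.05 in HDC-A, and -0.08, 0.34 and -0.03 in HDC-M pools at its tested probe. The groups overlapped, with the HDC-A pools inside the range of the HDC-M pools. Cd8a, the coreceptor of cytotoxic T cells, had -0.10, -0.16 and -0.02 in HDC-S, 0.18, -0.02 and 0.01 in HDC-A, and 0.04, 0.06 and -0.01 in HDC-M pools (A_52_P150547). Every HDC-S pool was below every pool of the other groups, yet HDC-S differed from HDC-A by -0.15 (SE 0.07, 95% interval -0.31 to 0.00, adjusted p = 0.273) and from HDC-M by -0.12 (SE 0.07, adjusted p = 0.460).

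A pair of further probes carry the full name of Cd8a in place of its symbol, and they gave another picture. The first (A_51_P345121) had 0.26, 0.29 and 0.56 in HDC-S, 0.03, 0.61 and 0.76 in HDC-A, and 0.33, 0.89 and 0.00 in HDC-M pools. The second (A_52_P443334) had 0.23, 0.26 and 0.37 in HDC-S, 0.18, 0.56 and 0.55 in HDC-A, and 0.41, 0.33 and 0.02 in HDC-M pools. Both were brighter in Cy5 than the symbol-matched probe, and in both the lowest pools were HDC-A pool 1 and HDC-M pool 3. None of the differences between groups passed at either probe. A further probe, described as similar to Cd3e (A_52_P86404), was left out by the filter on dim probes. The probes of Cd8a thus disagreed in sign for HDC-S against culture, and which of them reports the transcript was not tested.

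Gzmb, the granzyme that activates caspases in the target cell, varied most. It had log2 ratios of 0.85, 0.79 and 0.81 in HDC-S pools, 0.14, 1.00 and 1.85 in HDC-A pools, and 0.73, 0.67 and 0.11 in HDC-M pools. The HDC-S pools were nearly level (SD 0.03, n = 3), while the HDC-A pools (SD 0.86) spanned the whole range of the 9 arrays apart from HDC-M pool 3. Every HDC-S pool was above every HDC-M pool, by 0.31 on average (SE 0.35, adjusted p = 0.749). HDC-A exceeded HDC-M by 0.50 (SE 0.35, 95% interval -0.30 to 1.29, adjusted p = 0.564), the largest difference of any member between tumour groups. HDC-A pools 2 and 3 were above every HDC-M pool, while HDC-A pool 1 lay within the HDC-M range.

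Prf1, which encodes perforin, followed Gzmb. Its ratios were 0.33, 0.28 and 0.29 in HDC-S pools, -0.13, 0.67 and 0.74 in HDC-A pools, and 0.35, 0.23 and -0.04 in HDC-M pools. HDC-A pool 1 and HDC-M pool 3 were the lowest of all, and the HDC-S pools were again nearly level (SD 0.02). Gzma, a granzyme with trypsin-like activity, had 0.45, 0.42 and 0.24 in HDC-S pools, -0.04, 0.39 and 0.11 in HDC-A pools, and 0.21, 0.56 and -0.00 in HDC-M pools. Its highest pool was HDC-M pool 2, and HDC-A pool 3, where Gzmb peaked, was low for Gzma.

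Nkg7, a membrane protein of cytotoxic granules, was measured by both of its probes. The brighter one (A_52_P24447) had 0.53, 0.87 and 0.91 in HDC-S pools, 0.11, 1.47 and 1.08 in HDC-A pools, and 0.86, 0.96 and 0.10 in HDC-M pools. The other (A_51_P499195) had 0.34, 0.47 and 0.46 in HDC-S pools, 0.29, 0.64 and 0.69 in HDC-A pools, and 0.39, 0.54 and 0.06 in HDC-M pools. Both put HDC-A pool 1 and HDC-M pool 3 lowest, with the groups overlapping. Klrd1, the CD94 chain of the CD94 and NKG2 receptors of NK cells and some T cells, had 0.49, 0.53 and 0.44 in HDC-S pools, 0.05, 0.69 and 0.56 in HDC-A pools, and 0.56, 0.63 and 0.12 in HDC-M pools. The same 2 pools were lowest, and the other 7 lay between 0.44 and 0.69.

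Cd274 had the highest ratios over culture. They were 1.13, 1.30 and 1.35 in HDC-S pools, 0.41, 1.50 and 1.97 in HDC-A pools, and 1.11, 1.26 and 0.64 in HDC-M pools. HDC-A held both the lowest and the highest pool, and the HDC-S pools lay in between. The SD was 0.11 in HDC-S, 0.80 in HDC-A and 0.32 in HDC-M tumours (n = 3 each). HDC-S exceeded HDC-M by 0.25 (SE 0.33, 95% interval -0.49 to 1.00, adjusted p = 0.792), and HDC-A exceeded HDC-M by 0.29 (SE 0.33, 95% interval -0.46 to 1.03, adjusted p = 0.749).

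Whether histamine production of the tumour cells changed these genes is the question that the comparisons between groups address. In HDC-S against HDC-M tumours 0 of the 10 genes passed, beside 0.681% of all probes tested. In HDC-A against HDC-M tumours the count was 0 beside 1.44%, and in HDC-S against HDC-A tumours 0 beside 5.26%. No member probe reached an unadjusted p under 0.05 in limma in any of the 3 comparisons either. In this bulk RNA, fewer cells of a type and less RNA per cell cannot be told apart.

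The intervals limit what could have been seen. Over the 11 probes, differences ran from -0.12 to 0.31 in HDC-S against HDC-M, from -0.10 to 0.50 in HDC-A against HDC-M and from -0.18 to 0.22 in HDC-S against HDC-A tumours. Their medians were 0.10, 0.17 and -0.10, against 0.01, 0.01 and 0.00 over all probes tested. Groups did not overlap for 2, 2 and 1 of the 11 probes, which is 22.3%, 20.9% and 24.4% over all probes. The widest intervals, those of Gzmb, reach a level 2.15-fold that of HDC-M for HDC-S and 2.44-fold for HDC-A tumours. Both contrasts share the HDC-M arrays. Median centring in place of loess moved the median of all probes to -0.12 in HDC-S and -0.11 in HDC-A against HDC-M, and Cd274 to -0.02 and -0.01.

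**Figure D2:**
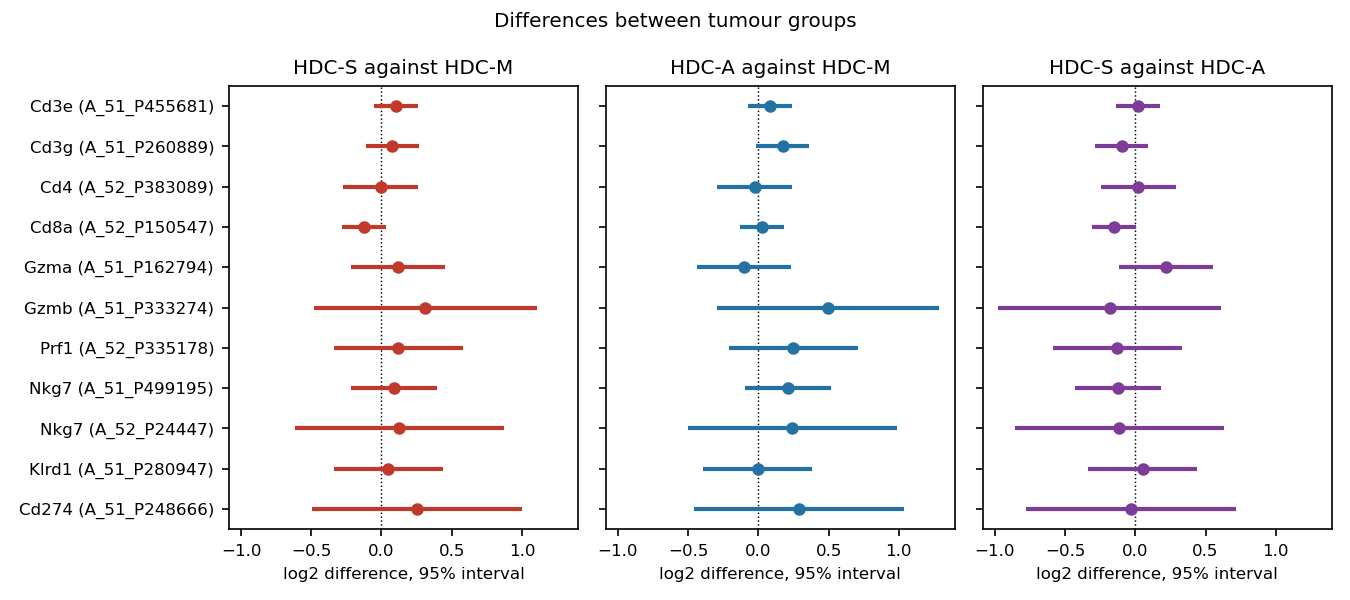
Difference in log2 ratio (horizontal axes) for the 11 tested probes (rows) in HDC-S against HDC-M, HDC-A against HDC-M and HDC-S against HDC-A tumours. Points are limma estimates and bars their 95% intervals; every interval includes 0, and those of Gzmb, Nkg7 (A_52_P24447) and Cd274 are the widest.

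The second scan day carried most of the larger differences. On the first day HDC-A minus HDC-M was -0.13 for Gzmb and -0.23 for Cd274, and on the second day, with 1 pool a group, it was 1.75 and 1.32. For Prf1 the same difference was -0.02 on the first day and 0.78 on the second. The second-day difference sets HDC-A pool 3, the highest, against HDC-M pool 3, the lowest of its group. HDC-S minus HDC-M was 0.12 on the first day and 0.70 on the second for Gzmb, and 0.03 and 0.71 for Cd274. Leaving out HDC-M pool 3 turned the HDC-S minus HDC-M difference to -0.01 for Gzma, -0.11 for Klrd1, and -0.05 and -0.14 for the Nkg7 probes A_51_P499195 and A_52_P24447. Leaving out HDC-A pool 3 turned the HDC-A minus HDC-M difference of Cd274 to -0.05.

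Set against culture, HDC-S tumours had 7 of 10 genes higher (Cd274, Cd3e, Cd3g, Gzma, Gzmb, Klrd1 and Nkg7) and 0 lower, where 38.2% of all probes were called higher. In HDC-A tumours 7 were higher (Cd274, Cd3e, Cd3g, Gzmb, Klrd1, Nkg7 and Prf1), where 38.9% of all probes were. HDC-M tumours had 4 higher (Cd274, Cd3e, Klrd1 and Nkg7), where 34% of all probes were. A ratio against 0 leaves out the spread of the reference and holds any dye effect of a probe, and the counts of the 3 groups were not tested against each other.

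Cd274 passed in every group, at 2.39-fold in HDC-S (log2 1.26, SE 0.24, adjusted p = 0.00114), 2.45-fold in HDC-A (log2 1.29, adjusted p = 0.000955) and 2.01-fold in HDC-M tumours (log2 1.01, adjusted p = 0.00498). Gzmb was 1.76-fold above culture in HDC-S (adjusted p = 0.0166) and 2.00-fold in HDC-A tumours (adjusted p = 0.00588), and its 1.42-fold ratio in HDC-M tumours did not pass (adjusted p = 0.110). These folds stand over a culture signal near the negative controls. With the scanner software's ratio, Gzmb in HDC-M tumours was at log2 1.47 and passed (adjusted p = 0.0413), as did Gzma (log2 1.23, adjusted p = 0.0438) and Cd3g (log2 0.63, adjusted p = 0.0296). Klrd1 ranged from 1.35-fold to 1.40-fold and Cd3e from 1.12-fold to 1.20-fold over the 3 groups, passing in each. Prf1 passed in HDC-A tumours alone (log2 0.43, adjusted p = 0.0253) although HDC-A pool 1 was below 0. Cd4 and the dim symbol-matched Cd8a probe passed in no group. That Cd8a probe passed as lower than culture in HDC-S tumours with the scanner software's ratio (log2 -0.71, adjusted p = 0.00271) and with median centring (log2 -0.24, adjusted p = 0.0160). In contrast, the full-name Cd8a probe A_52_P443334 passed as higher than culture in HDC-S (log2 0.28, adjusted p = 0.0195), HDC-A (log2 0.43, adjusted p = 0.00207) and HDC-M tumours (log2 0.25, adjusted p = 0.0343). The other full-name probe, A_51_P345121, passed as higher in HDC-A tumours alone (log2 0.47, adjusted p = 0.0326).

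Several of these calls were lost when a pool was left out. In HDC-S tumours Gzmb lost its call without any of the 3 HDC-S pools (adjusted p = 0.0662, 0.0578 and 0.0592 without pool 1, 2 and 3), while its log2 ratio stayed at 0.80, 0.83 and 0.82. Gzma lost it without pool 1 (log2 0.33, adjusted p = 0.0660) or 2 (log2 0.35, adjusted p = 0.0594) and Cd3g without pool 3 (log2 0.15, adjusted p = 0.0888). The brighter Nkg7 probe lost it without HDC-S pool 2 (log2 0.72, adjusted p = 0.0737) or 3 (log2 0.70, adjusted p = 0.0787), while the other Nkg7 probe kept it. In HDC-A tumours Prf1 lost its call without pool 2 (log2 0.31, adjusted p = 0.155) or 3 (log2 0.27, adjusted p = 0.183), and Klrd1 without pool 2 (log2 0.30, adjusted p = 0.0852) or 3 (log2 0.37, adjusted p = 0.0667). The brighter Nkg7 probe lost it there without pool 2 (log2 0.59, adjusted p = 0.0673). Median centring ended the calls of Gzma (adjusted p = 0.119) and Cd3g (0.113) in HDC-S and of Prf1 (0.0748) in HDC-A tumours. The first scan day alone ended those of Cd3g (0.0551) and the brighter Nkg7 probe (0.0817) in HDC-S, and of Prf1 (0.221), Klrd1 (0.0595) and the brighter Nkg7 probe (0.0566) in HDC-A tumours.

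In HDC-M tumours the count fell to 1 gene, Cd274, without pool 1 or without pool 2, and it was 5 without pool 3. Without HDC-M pool 3, Gzma also passed there (log2 0.39, adjusted p = 0.0178). The count also moved with arrays of the other groups, because the fit shares its error among groups, up to 6 without HDC-A pool 1. In that fit Gzmb (adjusted p = 0.0248) and Prf1 (0.0463) passed in HDC-M tumours.

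A common order of the pools ran through several members. HDC-A pool 1 was the lowest of its group for 7 of the 11 probes, those of Cd274, Gzma, Gzmb, Klrd1, Nkg7 and Prf1, where it was lowest for 30.1% of all probes. HDC-M pool 3 was the lowest of its group for 10 of 11 probes, all but that of Cd4, where it was lowest for 42% of all probes. Both pools were singled out after these values were seen. Averaged over the 10 genes, the log2 ratio was 0.42, 0.46 and 0.46 in HDC-S pools, 0.13, 0.62 and 0.70 in HDC-A pools, and 0.42, 0.51 and 0.10 in HDC-M pools. HDC-A pools 2 and 3 were the highest 2 and HDC-M pool 3 and HDC-A pool 1 the lowest 2 of all 9.

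**Figure D3:**
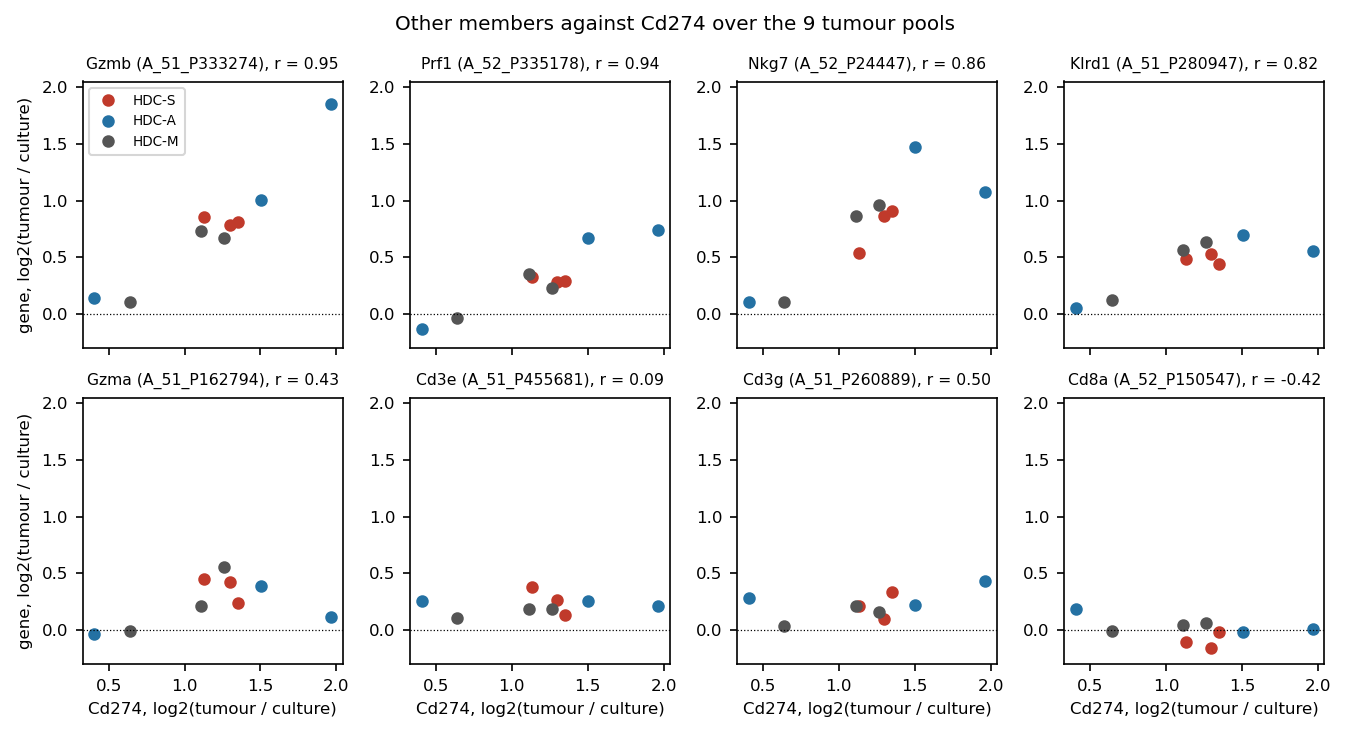
Log2 ratio over culture of 8 members (vertical axes) against that of Cd274 (horizontal axes) in the 9 tumour pools, coloured by group. Gzmb, Prf1, Nkg7 and Klrd1 rise with Cd274 (r of 0.95, 0.94, 0.86 and 0.82; 0.93, 0.83, 0.55 and 0.20 without HDC-A pool 1 and HDC-M pool 3), whereas Gzma, Cd3e, Cd3g and Cd8a do not pass (r of 0.43, 0.09, 0.50 and -0.42). Cd8a is shown by its dim symbol-matched probe alone.

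Cd274 had the largest SD over the 9 pools among members well above background on every array, so the others were set against it. In all, 18 relations were computed, 9 with members and 9 with marker lists. Gzmb correlated with Cd274 at Pearson r = 0.95 (exact permutation p = 0.000488, adjusted p = 0.00851, n = 9) and Spearman rho = 0.85 (exact permutation p = 0.00607, adjusted p = 0.0547). Without HDC-A pools 1 and 3, the 2 pools farthest from the median of Cd274, r was 0.92, and among the 6 pools of the first scan day it was 0.95. For Prf1, r was 0.94 (exact permutation p = 0.000945, adjusted p = 0.00851, n = 9), 0.84 without the same pools and 0.90 on the first scan day, while rho was 0.73 (exact permutation p = 0.0311, adjusted p = 0.187).

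Nkg7 had r = 0.86 (exact permutation p = 0.0045, adjusted p = 0.027, n = 9) and rho = 0.90 (exact permutation p = 0.00203, adjusted p = 0.0365). Klrd1 had r = 0.82 (exact permutation p = 0.00878, adjusted p = 0.0395, n = 9) and rho = 0.57 (exact permutation p = 0.121, adjusted p = 0.271). Without HDC-A pools 1 and 3 these r were 0.93 and 0.88, and on the first scan day 0.91 and 0.97. With each group's mean taken off, r with Cd274 was 0.96 for Gzmb, 0.94 for Prf1, 0.85 for Nkg7 and 0.85 for Klrd1. Without HDC-A pool 1 and HDC-M pool 3, a setting chosen after seeing the data, r over the other 7 pools was 0.93 for Gzmb and 0.83 for Prf1, but 0.55 for Nkg7 and 0.20 for Klrd1 (rho of 0.71, 0.43, 0.82 and 0.07). The relation of Klrd1 with Cd274 therefore rests on those 2 pools.

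For the T cell receptor and coreceptor genes and Gzma the relation did not pass. Exact permutation p for r with Cd274 was 0.824 for Cd3e (r = 0.09, n = 9), 0.17 for Cd3g (r = 0.50), 0.626 for Cd4 (r = 0.19), 0.245 for Cd8a (r = -0.42) and 0.251 for Gzma (r = 0.43). Some of these moved with the pools used. Gzma had r = 0.83 on the first scan day and 0.70 without HDC-A pools 1 and 3, but -0.55 without HDC-A pool 1 and HDC-M pool 3. Cd3g had -0.62, 0.63 and 0.72 in the same 3 settings. These genes were also dimmer or flatter than the others, which limits what a correlation can show. Cd8a stands here by its dim symbol-matched probe (A_52_P150547), well above background on 4 arrays. The relation of its full-name probes with Cd274 was not computed, and both were lowest in HDC-A pool 1 and HDC-M pool 3. All ratios of a pool share its array and the same culture RNA.

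Some immune markers of other cells were low in the same pools. Of 6 immune marker lists, those of leukocytes, macrophages and dendritic cells had HDC-M pool 3 and HDC-A pool 1 as the lowest 2 of 9, whereas the B cell list was lowest in HDC-M pool 2, the mast cell and basophil list in HDC-A pool 3, and the neutrophil list in HDC-M pool 3 and then HDC-A pool 3. The 3 leukocyte markers (3 of 3 measured) summed to 4.25 to 5.35 in HDC-S, 3.14 to 6.27 in HDC-A and 2.19 to 4.97 in HDC-M pools, lowest in HDC-M pool 3 and then HDC-A pool 1. The macrophage markers (8 of 8 measured) summed to 12.0 to 16.0 in HDC-S, 10.9 to 16.3 in HDC-A and 6.88 to 14.5 in HDC-M pools, with the same 2 pools lowest. All 8 macrophage markers were called higher than culture in each group. So were all 3 leukocyte markers in HDC-S and in HDC-A tumours, but 2 of 3 in HDC-M tumours. Over all probes, 38.2% were called higher in HDC-S, 38.9% in HDC-A and 34% in HDC-M tumours. The mean of the leukocyte markers correlated with Cd274 at r = 0.70 (exact permutation p = 0.0355, adjusted p = 0.128, n = 9) and that of the macrophage markers at r = 0.63 (exact permutation p = 0.0764, adjusted p = 0.229). Without HDC-A pools 1 and 3 these r were 0.92 and 0.83, and on the first scan day 0.97 and 0.93, but without HDC-A pool 1 and HDC-M pool 3 they were 0.12 and -0.04. The part of these cells in the pattern of Cd274 and the granule genes was not tested.

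Among 17058 other named probes, those most like Cd274 over the 9 pools were Trafd1 (r = 0.99), Tmem140 (0.99), Stat2 (0.98), Vwa5a (0.98) and Gbp8 (0.98). Stat2, a signal transducer of the interferon receptors, had log2 ratios of 1.49, 1.57 and 1.46 in HDC-S pools, 0.63, 1.81 and 2.11 in HDC-A pools, and 1.26, 1.53 and 0.87 in HDC-M pools. Gbp8, a guanylate-binding protein, had 0.93, 1.08 and 1.23 in HDC-S pools, 0.20, 1.44 and 2.02 in HDC-A pools, and 0.68, 1.16 and 0.18 in HDC-M pools. In both, HDC-A pool 3 was highest and HDC-A pool 1 or HDC-M pool 3 lowest. Gzmb ranked 14, Prf1 20, Nkg7 124 and Klrd1 184 in the same list. The other members ranked far lower, with Cd3g at 1692, Gzma at 2283, Cd4 at 5209, Cd3e at 6853 and the dim Cd8a probe at 15038.

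**Figure D4:**
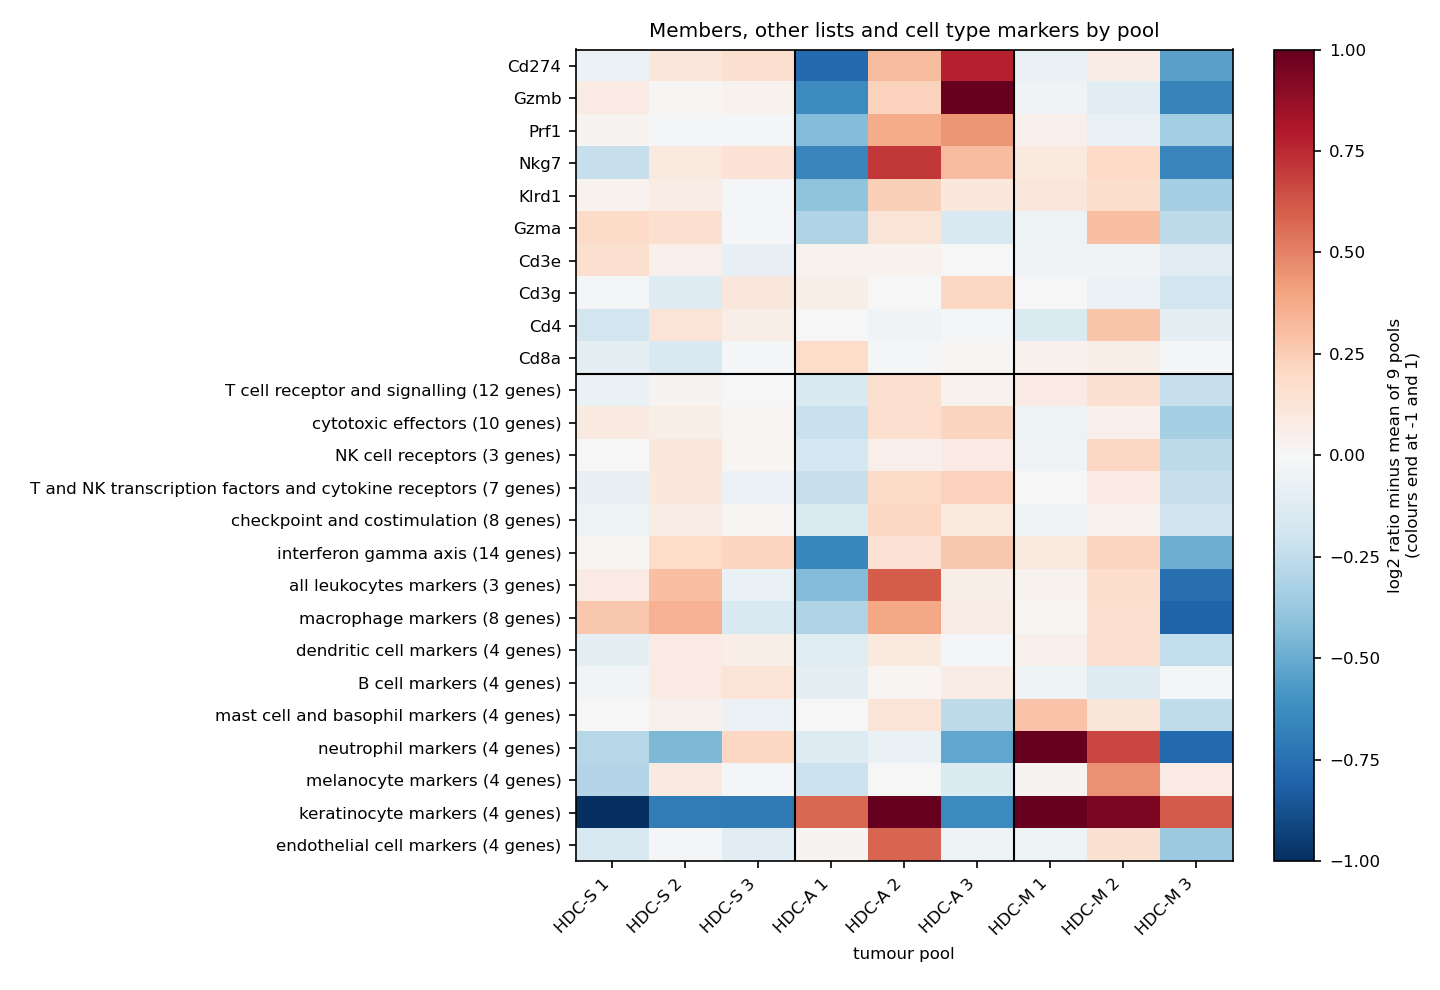
Log2 ratio over culture minus its mean over the 9 pools (colour) for the members, 6 further T and NK lists and 9 marker lists (rows, list means over measured genes, skipping outlier spots) in the HDC-S, HDC-A and HDC-M pools (columns). HDC-A pool 1 and HDC-M pool 3 are blue for Cd274, Gzmb, Prf1, Nkg7, Klrd1, the leukocyte and macrophage markers and the interferon gamma axis.

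Of 74 further T and NK genes in 6 lists, 54 were measured. Those not measured had no probe, or a brightest probe with Cy5 well above background on fewer than 3 arrays. Of the 54, 0 passed between tumour groups in any comparison, beside 0.681% of all probes in HDC-S against HDC-M, 1.44% in HDC-A against HDC-M and 5.26% in HDC-S against HDC-A tumours. Above 0 were 37 of 54 in HDC-S against HDC-M (median 0.07), 36 in HDC-A against HDC-M (0.08) and 24 in HDC-S against HDC-A tumours (-0.01). The medians over all probes were 0.01, 0.01 and 0.00. Against culture 35 were higher and 2 lower in HDC-S, 38 and 2 in HDC-A, and 31 and 2 in HDC-M tumours, where 38.2%, 38.9% and 34% of all probes were called higher. Over all probes 17250, 17647 and 15552 passed in either direction in these groups, of which 10265, 10451 and 9139 were higher. The gene with the smallest p of each list is given next.

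In the T cell receptor and signalling list (12 of 14 measured) it was Lat, an adaptor of T cell receptor signalling, at -0.27 in HDC-S against HDC-M (adjusted p = 0.253) and -0.25 in HDC-A against HDC-M (adjusted p = 0.259), and Cd5, an inhibitory receptor, at -0.18 in HDC-S against HDC-A. Of the cytotoxic effectors (10 of 14) it was Gzmc, another granzyme, at 0.51 in HDC-S against HDC-M (adjusted p = 0.224) and 0.36 in HDC-A against HDC-M, and Serpinb9, an inhibitor of granzyme B, at -0.15 in HDC-S against HDC-A. Of the NK receptors 3 of 11 were measured, with Klrk1, the activating receptor NKG2D, at 0.11 in HDC-S against HDC-M and 0.12 in HDC-A against HDC-M, and Klrb1c at 0.06 in HDC-S against HDC-A. None of these passed. The probes of Klrc1, Klrc2, Klre1, Klrg1, Klra8, Ncr1 and Cd160 were too dim, well above background on 0 to 2 arrays. Klra1 had no probe.

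Among transcription factors and cytokine receptors (7 of 9), Gata3, the factor of type 2 helper cells, was at -0.32 in HDC-S against HDC-M and -0.24 in HDC-S against HDC-A, and Eomes at 0.09 in HDC-A against HDC-M. The checkpoint and costimulation list (8 of 12) was led by Cd276, a B7 family ligand, at 0.21 in HDC-S and 0.22 in HDC-A against HDC-M, and by Tnfrsf4 at -0.26 in HDC-S against HDC-A. In the interferon gamma axis (14 of 14) the smallest p belonged to Ifngr2 at -0.20 in HDC-S against HDC-M, Ifngr1 at 0.30 in HDC-A against HDC-M, and Cxcl10, a chemokine that draws T cells, at 1.06 in HDC-S against HDC-A (adjusted p = 0.150). Cxcl10 had 2.95, 3.31 and 3.78 in HDC-S pools, 1.58, 2.39 and 2.90 in HDC-A pools, and 2.79, 3.02 and 1.90 in HDC-M pools, so all HDC-S pools were above all HDC-A pools without passing.

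HDC-A pool 1 and HDC-M pool 3 were the lowest 2 of 9 pools for 27 of the 53 measured list genes with a value on every array. They were so for 7 of 11 member probes and for 5.5% of all probes. These 2 pools were singled out after the members' values were seen, so the share among members was set in part by that choice. Ifng, Cd8b1, Cd3d and Irf1 are named from among the 27 after their values were seen. Ifng, interferon gamma itself, had 0.46, 0.63 and 0.79 in HDC-S pools, 0.15, 0.72 and 1.32 in HDC-A pools, and 0.81, 1.05 and 0.17 in HDC-M pools. Cd8b1, the partner chain of Cd8a, had 0.54, 0.83 and 1.50 in HDC-S pools, 0.43, 1.55 and 1.24 in HDC-A pools, and 1.18, 1.15 and 0.19 in HDC-M pools. In contrast to Gzmb and Cd274, Cd8b1 was higher in HDC-A pool 2 and HDC-S pool 3 than in HDC-A pool 3. Cd8b1 and Cd3d, another CD3 chain, passed against culture in each group (Cd8b1 at 0.96 in HDC-S, 1.07 in HDC-A and 0.84 in HDC-M, Cd3d at 0.45, 0.65 and 0.52), unlike the dim Cd8a probe. Of the 12 measured genes of their list, 7 were called higher in HDC-S, 7 in HDC-A and 6 in HDC-M tumours. In HDC-A tumours 1 gene of the list, Cd27, was called lower. Over all probes 38.2%, 38.9% and 34% were called higher in these groups. Irf1, a transcription factor that interferon gamma induces, had 3.32, 3.64 and 3.82 in HDC-S pools, 2.03, 3.74 and 4.13 in HDC-A pools, and 3.59, 3.64 and 2.89 in HDC-M pools.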

How the data were processed

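Two-colour Agilent mouse arrays measured 9 pools of tumour RNA. Each deposited scanner file gives, per spot and dye, a mean intensity and the median intensity of the local background, written by Agilent Feature Extraction per the file headers. The authors' value table is on the log10 scale, and at its 43790 spots it matched the scanner software's own deposited log10 ratio (Cy5 to Cy3) with a largest difference of 0, so its scale and direction are known and it adds no centring. Other columns, per the file headers, mark spot type, outliers, saturation and spots well above background.

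Spots were background-corrected with normexp (offset 50) and normalised by loess in limma 3.58.1 (R 4.3.3). Control and outlier spots were given no weight for the loess step and dropped after it, and spots of a probe were averaged. Probes with Cy5 well above background on at least 3 of 9 arrays were kept, 26871 of 41174. All 9 arrays entered 1 limma model (lmFit, eBayes) with Benjamini-Hochberg adjustment over all probes kept and a threshold of 0.05. Intervals are 95% limits of that model, and the number of arrays limits precision. Nothing says that the pools of a group came from separate experiments, so p-values measure the spread between pools. On simulated data with known changes the fit was checked.

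Probes were named by accession (22072 directly and 142 through another accession), by a symbol in the description (663) or by a synonym there (658), through a RefSeq gene table, and 17639 had no name. For 1 probe the synonym of a member belonged to another gene, and it was not taken. The files name no genome build for the probes, so no probe position is given. In counts over lists the brightest probe stood for a gene. The text names all members, list genes with a probe past the threshold between tumour groups and, for length, the gene with the smallest p of each list and comparison where the rule gave 2, and the 5 probes most like Cd274. Relations across pools used exact permutation tests, two-sided, with Benjamini-Hochberg adjustment over 18 relations. The members, lists and tests were chosen with earlier results of these data known.

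Alternatives covered the background (uncorrected, or plainly subtracted), the source of the ratio (scanner software, authors' table, Cy5 channel alone), median centring, other filters, blocks for scan day and for replicate number, the first scan day alone, and each array left out.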

Additional observations from a re-analysis of the deposited data

How the results depend on the processing

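The count of members passing between tumour groups was 0 under all 11 alternatives and all 9 fits that left out an array, in each of the 3 comparisons. Precision is limited by 3 pools a group and by signals near the negative controls. In HDC-M tumours against culture the count of 4 became 7 with the scanner software's ratio, the authors' value table and the first scan day alone, and ranged from 1 to 6 when an array was left out, being 1 without HDC-M pool 1 and 1 without HDC-M pool 2. In HDC-S tumours it was 5 to 8 in all, and in HDC-A tumours likewise 5 to 8. These counts take calls in either direction. In HDC-S tumours they include Cd8a as lower with the scanner software's ratio, the value table and median centring. Over all probes, counts moved far more. In HDC-S against HDC-M, 183 became 315 without background correction, 7 with the scanner software's ratio and the value table, 5 with median centring, 10 with Cy5 alone, 85 with scan day as a block, 30 on its first day and 4 to 189 without an array. In HDC-A against HDC-M, 387 became 18 with both ratios, 2 with median centring, 208 with Cy5 alone, 189 with scan day as a block, 5 on its first day and 21 to 218 without an array. In HDC-S against HDC-A, 1412 became 392 with both ratios, 4 with median centring, 564 with Cy5 alone, 9 on the first scan day and 455 to 1389 without an array. The cause was not tested.

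With the replicate block, that is the replicate number as a block, 0 members passed in each comparison between tumour groups, and 7, 7 and 5 were called against culture in HDC-S, HDC-A and HDC-M tumours. Over all probes it gave 70, 187 and 1123 calls in HDC-S against HDC-M, HDC-A against HDC-M and HDC-S against HDC-A. Deviations of same-numbered pools correlated at -0.19 to 0.55, over 0.1 in 4 of 9 pairs. Those of pools with other numbers correlated at -0.32 to 0.28, over 0.1 in 6 of 18 pairs. The highest value, 0.55, was that of HDC-A pool 2 with HDC-S pool 2, while HDC-A pool 1 correlated best with HDC-M pool 3 (0.28). The numbers were not taken as pairs.

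Of the differences between tumour groups, those of members and of 4 other listed genes (Klrk1, Cd276, Klrb1c and Ifngr1) that changed sign passed in neither fit. With Cy5 alone, HDC-S against HDC-M became -0.067 for Klrk1, -0.068 for Klrd1, -0.10 for Cd3e, -0.0019 for Cd276 and 0.086 for Cd4. HDC-A against HDC-M became -0.029 for Klrk1, -0.030 for Cd3e, -0.0088 for Cd8a and 0.037 for Cd4, and HDC-S against HDC-A 0.042 for Cd274, -0.075 for Cd3e and -0.035 for Klrb1c. With median centring, HDC-S against HDC-M became -0.017 for Cd274, -0.013 for Klrd1, -0.053 for Cd3e and 0.014 for Cd4, HDC-A against HDC-M -0.0080 for Cd274, -0.099 for Ifngr1 and -0.032 for Cd3e, and HDC-S against HDC-A -0.021 for Cd3e. Cd8a against culture, positive in the fit reported, became -0.070 in HDC-A and -0.16 in HDC-M tumours. On the first scan day alone, HDC-S against HDC-M became -0.035 for Cd3g, -0.088 for Klrd1, and -0.066 and -0.21 for Nkg7. HDC-A against HDC-M became -0.23 for Cd274, -0.13 for Gzmb, -0.0022 and -0.12 for Nkg7 and -0.020 for Prf1, and HDC-S against HDC-A 0.26 for Cd274, 0.25 for Gzmb, 0.035 for Prf1 and -0.0054 for Cd4. Klrd1 in HDC-S against HDC-M was -0.026 without background correction and -0.032 with plain subtraction. The scanner ratio and the value table both gave -0.16 for Klrd1 and 0.0077 for Cd4 in HDC-S against HDC-M, -0.0047 for Cd3e in HDC-S against HDC-A, and, against culture, -0.026 for Cd4 in HDC-A and -0.042 for Cd8a in HDC-M tumours. The cause was not tested.

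With an array left out, signs turned for these members. In HDC-S against HDC-M the ranges were -0.013 to 0.27 for Gzma, -0.11 to 0.14 for Klrd1, -0.048 to 0.19 and -0.14 to 0.29 for the Nkg7 probes, and -0.085 to 0.13 for Cd4. In HDC-A against HDC-M they were -0.23 to 0.049 for Gzma, -0.050 to 0.73 for Cd274, -0.16 to 0.19 for Klrd1, -0.035 to 0.065 for Cd8a, -0.051 to 0.63 for Nkg7 (A_52_P24447) and -0.11 to 0.10 for Cd4. In HDC-S against HDC-A they were -0.48 to 0.30 for Cd274, -0.14 to 0.18 for Klrd1, -0.61 to 0.24 for Gzmb, -0.040 to 0.081 for Cd3e, -0.50 to 0.18 for Nkg7 (A_52_P24447), -0.41 to 0.031 for Prf1 and -0.044 to 0.12 for Cd4. Against culture, Cd8a ranged from -0.0033 to 0.10 in HDC-A and Cd4 from -0.058 to 0.15 in HDC-M tumours.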

Other observations

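Markers of other cell types were measured beside the T and NK genes, and no gene's brightest probe passed between tumour groups. The 4 keratinocyte markers averaged 0.12, 2.02 and 2.01 in HDC-S pools, 3.30, 3.73 and 2.08 in HDC-A pools, and 4.23, 3.66 and 3.33 in HDC-M pools, with outlier spots of Krt14 left out in HDC-M pools 2 and 3. For each of the 4 genes at least 1 HDC-S pool was above HDC-A pool 3, so HDC-S and HDC-A overlapped. In all 4 genes every HDC-S pool was below every HDC-M pool with a value. Groups did not overlap in that comparison for 22.3% of all probes. The median difference of the 4 genes was -2.54 in HDC-S against HDC-M, and the smallest adjusted p in limma was 0.113, for Krt10. The neutrophil markers (4 of 6 measured) averaged 0.58, 0.41 and 1.07 in HDC-S, 0.73, 0.80 and 0.34 in HDC-A, and 2.20, 1.53 and 0.08 in HDC-M pools, so HDC-M held both the highest and the lowest pool. S100a9, a neutrophil calprotectin subunit, had an outlier spot left out in HDC-S pool 3.

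B cell markers (4 of 5 measured) averaged 0.14, 0.25 and 0.30 in HDC-S, 0.07, 0.19 and 0.24 in HDC-A, and 0.12, 0.04 and 0.16 in HDC-M pools. Against culture, 3 of the 4 passed as higher in HDC-S, 2 in HDC-A and 1 in HDC-M tumours, and 1 passed as lower in each, where 38.2%, 38.9% and 34% of all probes were called higher. Of the melanocyte genes, the dimmer probe of Dct (A_52_P550629), a pigment enzyme, gave a log2 difference of -0.88 for HDC-A against HDC-M tumours (adjusted p = 0.00406) and of 0.81 for HDC-S against HDC-A tumours (adjusted p = 0.00234). The brighter Dct probe (A_51_P116838) gave 0.12 and 0.00 in the same comparisons and did not pass, so the probes of this gene disagreed.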
